A study of Mus musculus with 24 samples.

Results

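A set of 9 genes of the axon was followed through the lumbar spinal cord of mice given paclitaxel or vehicle. They are Nefl, Nefm, Nefh and Ina, which encode the subunits of neuronal intermediate filaments, Sarm1, Nmnat1 and Nmnat2, which encode enzymes that destroy or make NAD, and Uchl1 and Sncg, which encode proteins abundant in neurons with long axons. They were chosen by gene symbol, and all 9 of the 9 named genes were found among the 55418 genes of the count table.

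Neurofilaments are polymers that fill large axons and set their calibre. The light chain forms the core, and the medium and heavy chains carry long side arms, while alpha-internexin, the product of Ina, joins them in central neurons. Axon survival rests on NMNAT2, a short-lived enzyme that makes NAD and is carried down the axon, and on SARM1, an NAD-destroying enzyme that is held in check as long as NMNAT2 is supplied. Paclitaxel, a cancer drug that stabilises microtubules, causes a painful neuropathy of long sensory axons, and neurofilament light chain in blood is a known marker of axon damage.

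The study crossed genotype, sex and treatment in 24 C57BL/6J mice, with 3 mice in each of 8 groups, and RNA was sequenced from segments L4 to L6 of the cord. The genotypes were wild-type (WT) and a knockout of Chrna7, the gene of the alpha7 nicotinic acetylcholine receptor subunit, restricted to myeloid cells (Chrna7-cKO). The driver of the deletion and the alleles carried by the wild-type mice are not given in the sources used here. Mice were 8 to 10 weeks old at the start and received paclitaxel at 1 mg per kg in 4 injections every other day, or the Kolliphor, ethanol and water vehicle, with RNA extraction on day 7, counted from the first injection. The 8 groups are thus WT female vehicle, WT female paclitaxel, WT male vehicle, WT male paclitaxel and the same 4 in Chrna7-cKO.

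Libraries held 88812295 to 112158154 counts (median 94343662), and the 9 genes were covered by at least 653 counts in every cord library. WT female paclitaxel replicate 3 had the profile of a sensory ganglion, with a sum over 10 ganglion neuron markers of 3172 CPM (counts scaled to a library total of 1e6) against 15.3 to 18.96 CPM in the 23 other libraries. It is described separately, so that WT female paclitaxel has 2 cords, and 23 cords enter the comparisons. Chrna7 lay at 9.38 to 15.9 CPM in the 11 WT cords and at 9.09 to 14.5 CPM in the 12 Chrna7-cKO cords. A deletion limited to myeloid cells is not checked by whole cord, where neurons also express the gene. Library numbers 1 to 12 in the labels hold WT and Chrna7-cKO females under vehicle and males under paclitaxel, and numbers 13 to 24 hold the others. The interaction of sex and treatment and any difference between these library numbers therefore cannot be told apart, nor can sex and library number within 1 treatment, or treatment and library number within 1 sex. In bulk cord, fewer cells of a type and less RNA per cell cannot be told apart.

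Nefl and Nefm lie on opposite strands of mouse chromosome 14 and overlap, which bears on what their counts hold. In GRCm38, Nefl spans chr14:68083863-68089095 on the plus strand and Nefm spans chr14:68082590-68124846 on the minus strand. The last exon of the longer Nefm transcript, Nefm-202, covers 1108 exon bases of Nefl, at chr14:68083863-68084970. That is 32.8% of the exon length of Nefl, 96.6% of its first exon and 19.2% of the exon length of Nefm. Counting ignored strand and dropped reads that overlap 2 genes, so reads from this stretch count for neither gene. The first 60 bases of the stretch that is coding in both transcripts, chr14:68084827-68084886, are shown from each strand to make the overlap visible (GENCODE M21). The capitals mark the same 10 base pairs, read as the start of the Nefl line and as the end of the Nefm-202 line.
Nefl-201, exon 1, plus strand: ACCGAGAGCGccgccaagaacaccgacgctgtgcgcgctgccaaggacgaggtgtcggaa
Nefm-202, exon 4, minus strand: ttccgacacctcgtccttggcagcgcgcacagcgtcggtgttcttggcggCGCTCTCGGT
Smaller overlaps exist for Ina, which shares 456 exon bases (14.1%) with Nt5c2, and for Uchl1, which shares 295 (18.1%) with the antisense gene Uchl1os. Nefh, Sarm1, Nmnat1, Nmnat2 and Sncg share none. Every fold change below compares a gene with itself, so the lost stretch lowers a level. It alters a ratio between libraries only if the share of the gene's own reads that fall in the stretch differs between them, which was not tested.

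Per exon length, the neurofilament light chain was the most abundant of the 9 transcripts in the cord. Mean RPKM (CPM divided by the exon length in kilobases) over the 23 cords was 475 ± 32.3 (SD) for Nefl, 355 ± 46.2 for Nefm and 258 ± 30.8 for Nefh. Uchl1, a neuronal ubiquitin hydrolase, lay among them at 288 ± 26.1. Sncg, gamma-synuclein, reached 110 ± 10.1 and Ina 83.4 ± 5.69. The survival axis was far lower, with Nmnat2 at 33.8 ± 1.73, Sarm1 at 5.14 ± 0.260 and Nmnat1, the nuclear enzyme, at 2.65 ± 0.206. The ranges over cords of Nefm (269 to 483), Uchl1 (245 to 370) and Nefh (194 to 331) overlapped, and so did those of Nefl (430 to 582) and Nefm. Sncg (94.9 to 137) and Ina (69.4 to 91.6) did not overlap. Counted over the exon bases that no other gene shares, Nefl reached 706, Nefm 439, Uchl1 352 and Ina 97.1 RPKM, and the order of the 9 means was the same. The overlaps of ranges were not. On these bases Nefl (640 to 865) and Nefm (333 to 597) no longer overlapped, nor did Nefm and Nefh (194 to 331). Ina (80.8 to 107) and Sncg (94.9 to 137) then did overlap.

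Nefm and Nefh varied the most between cords, and Sarm1 and Nmnat2 the least. The coefficient of variation of CPM over the 23 cords was 13.03% for Nefm and 11.96% for Nefh, against a median of 6.75% for the 12401 genes with a mean of at least 5 CPM. It was 9.14% for Sncg, 9.07% for Uchl1, 7.79% for Nmnat1, 6.82% for Ina and 6.81% for Nefl. Nmnat2 was at 5.11% and Sarm1 at 5.06%. WT male paclitaxel replicate 2 held the highest level of 5 of the 9 genes: Nefl, Nefm, Nefh, Uchl1 and Sncg. The same cord had the lowest sum of 10 astrocyte markers (5924 CPM, against a highest of 6962 CPM) and the highest sum of 10 motor neuron markers (615 CPM, against a lowest of 487 CPM). Other lists went the other way. Its sum of 10 pan-neuronal markers was 7777 CPM, below the median of 7883 CPM over the 23 cords. Its sum of 10 oligodendrocyte markers was 27684 CPM, above the median of 27007 CPM. Chrna7-cKO male vehicle replicate 3 held the lowest level of 5: Nefm, Nefh, Ina, Sarm1 and Nmnat2. The part of cell makeup in these values was not tested.

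**Figure D1:**
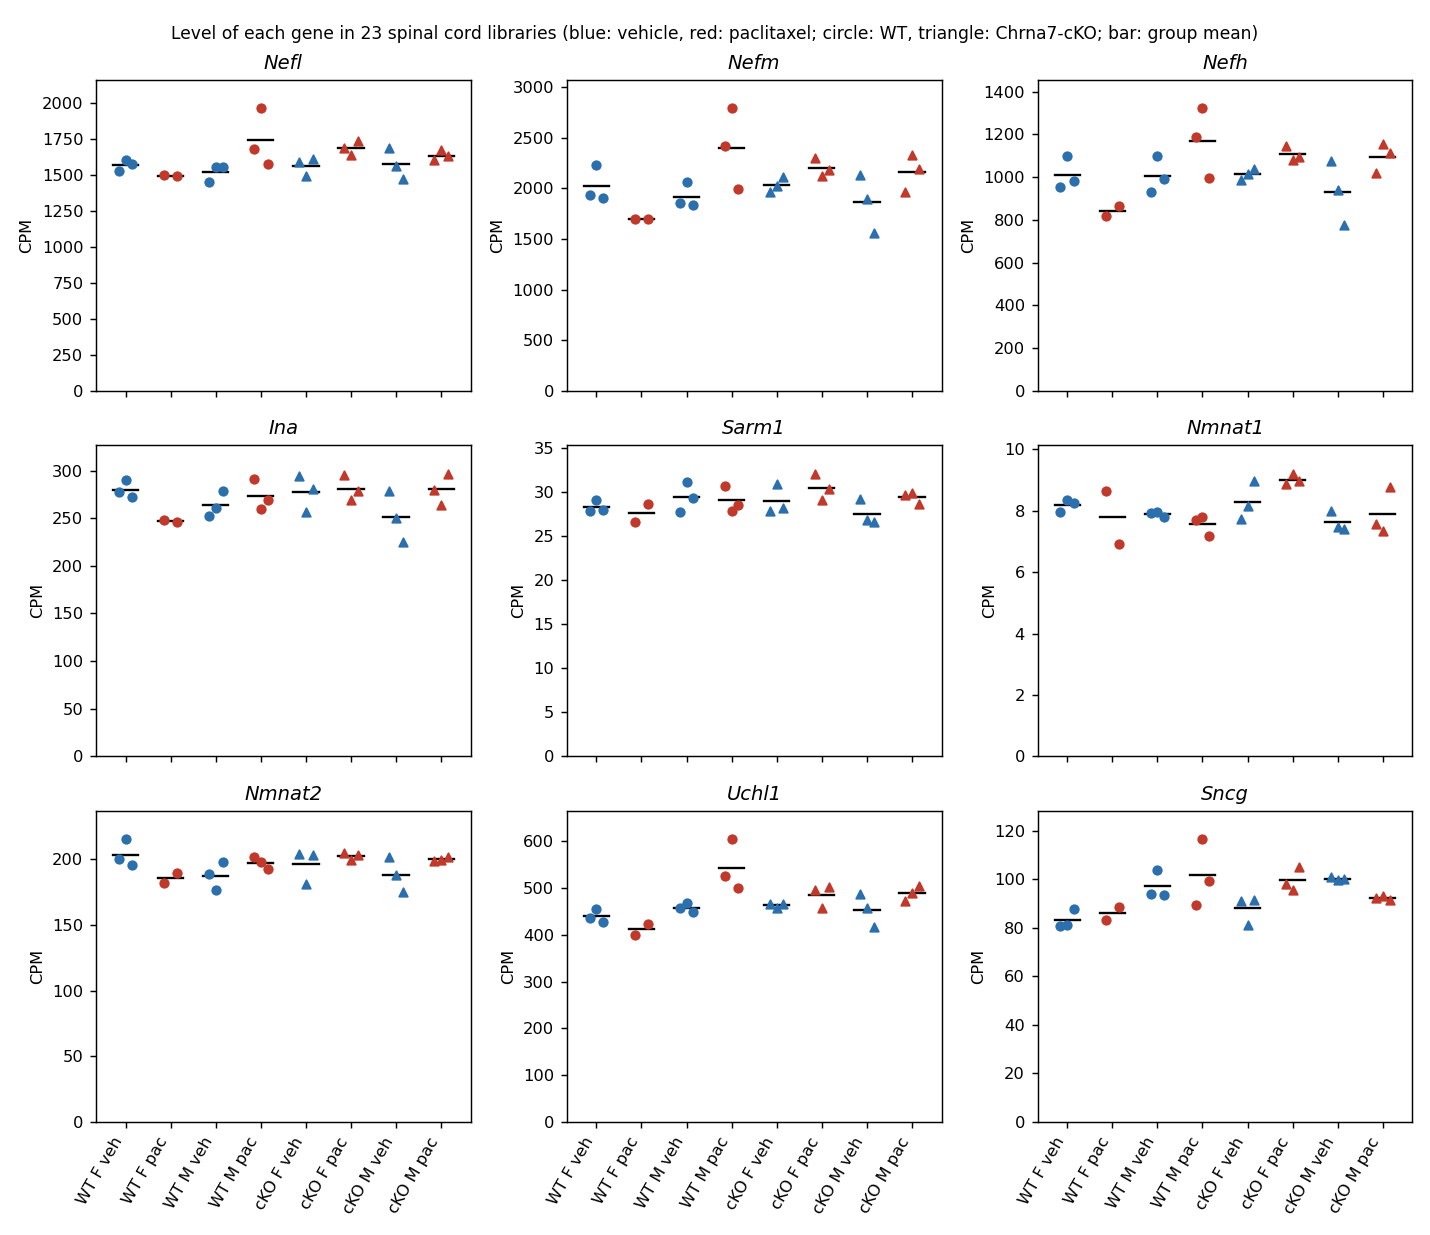
Level (CPM, linear axis from 0) of each gene in 23 cords, in 8 groups of genotype (WT, circles; Chrna7-cKO, triangles), sex (F, M) and treatment (veh, blue; pac, red); points are single mice and bars are group means. The red WT male point of Nefm at 2792 CPM stands above the other cords, the 2 WT female paclitaxel points lie at 1697 CPM, and Sarm1 and Nmnat2 stay within a narrow band.

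In wild-type cord, paclitaxel was not followed by a called change in any of the 9 genes. A gene was called when its edgeR p, adjusted over all 25372 tested genes, lay under 0.05, and 0% of all tested genes were called in this comparison. None of the 9 had an unadjusted p under 0.05, where 7.97% of all tested genes did, and none had treated and vehicle groups that did not overlap, where 0.485% did. The 4 genes above 0 on the log2 scale were Uchl1, Nefl, Sncg and Nefm, and the largest difference was -0.08 ± 0.07 (SE) for Nmnat1. Behind these averages, the mean of treated WT females lay below that of vehicle females for each filament gene. The mean of treated WT males lay above that of vehicle males, though single males overlapped for Nefm, Nefh and Ina. Within each sex, treatment and library number cannot be told apart. The share of all tested genes whose treated and vehicle cords separate within a sex was not computed.

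Nefm, the medium chain, was 1936, 2227 and 1908 CPM in WT females under vehicle and 1697 and 1697 CPM in the 2 under paclitaxel. In WT males it was 1849, 2066 and 1831 CPM under vehicle and 2419, 2792 and 1989 CPM under paclitaxel. Both treated females lay below all vehicle females, whereas 2 of 3 treated males lay above all vehicle males and the third lay among them. The fitted log2 fold change over both sexes was 0.03 ± 0.09 (edgeR adjusted p = 0.961), with a 95% confidence interval of -0.16 to 0.21. Without WT male paclitaxel replicate 2 it was -0.04.

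Nefh, the heavy chain, followed the same order. It was 953.6, 1098 and 980 CPM in WT females under vehicle and 818 and 865 CPM under paclitaxel. WT males had 928, 1101 and 990 CPM under vehicle and 1188, 1323 and 994 CPM under paclitaxel. Again both treated females lay below their controls and 2 of 3 treated males above. The log2 fold change over both sexes was -0.03 ± 0.08 (edgeR adjusted p = 0.943), and it turned to 0.02 without WT male paclitaxel replicate 3.

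Nefl moved less. Its 6 vehicle cords ranged from 1455 to 1604 CPM (median 1556), and its 5 paclitaxel cords were 1499, 1495, 1683, 1966 and 1577 CPM. Over both sexes the groups overlapped, with 1 treated male far above the rest, and the log2 fold change was 0.05 ± 0.05 (edgeR adjusted p = 0.821). Within each sex they did not overlap. Both treated females lay below the vehicle females (1531 to 1604 CPM). The treated males all lay above the vehicle males (1455 to 1560 CPM). Ina, the central partner of the triplet, was 252 to 290 CPM under vehicle (median 275) and 249, 247, 291, 260 and 269 CPM under paclitaxel. The 2 lowest WT values were those of the treated females, and the log2 fold change was -0.07 ± 0.05 (edgeR adjusted p = 0.744), the smallest adjusted p of the 9 genes in this comparison.

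The survival genes overlapped their controls in WT cord. Sarm1 ranged from 27.7 to 31.2 CPM under vehicle (median 28.6) and was 26.7, 28.7, 30.8, 27.9 and 28.6 CPM under paclitaxel. Nmnat2 ranged from 176 to 215 CPM under vehicle (median 196) and was 182, 189, 201.8, 198 and 192 CPM under paclitaxel. Every treated Nmnat2 value lay inside the vehicle range. The 95% confidence intervals of the log2 fold changes were -0.13 to 0.06 for Sarm1, -0.13 to 0.05 for Nmnat2 and -0.23 to 0.07 for Nmnat1. Nmnat1 was 7.79 to 8.36 CPM under vehicle and 6.92 to 8.64 CPM under paclitaxel, so its treated cords reached both below and above the controls.

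Uchl1 was 428 to 468 CPM in the 6 WT vehicle cords (median 452) and 399, 423, 525, 604 and 499 CPM in the 5 treated ones. The 2 treated females lay below all vehicle cords and the 3 treated males above all of them. How many of all tested genes do so was not computed, and within a sex treatment and library number cannot be told apart. Sncg was 80.9 to 104 CPM under vehicle (median 90.8) and 83.1, 88.7, 89.2, 117 and 99.5 CPM under paclitaxel. Its groups overlapped, and only WT male replicate 2 exceeded the vehicle range. The log2 fold changes over both sexes were 0.06 ± 0.05 for Uchl1 and 0.05 ± 0.05 for Sncg, neither of them called.

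In Chrna7-cKO cord all 9 genes had fitted levels above vehicle under paclitaxel, and none was called, where 0.0236% of all tested genes were. The log2 fold changes ran from 0.04 (Sncg) to 0.19 (Nefh), with a median of 0.09 beside 0.00 for all tested genes, of which 50.6% were above 0. One of the 9, Nefh, had an unadjusted p under 0.05, where 11.3% of all tested genes did. None of the 9 had treated and vehicle groups that did not overlap, where 0.426% of all tested genes had.

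Nefh in Chrna7-cKO was 776 to 1078 CPM in the 6 vehicle cords (median 1002) and 1021 to 1155 CPM in the 6 treated cords (median 1104). All treated values lay above the vehicle median, and the low end of the vehicle group was male replicate 3. The log2 fold change was 0.19 ± 0.08 (edgeR adjusted p = 0.378). Nefm ranged from 1556 to 2133 CPM under vehicle (median 1991) and from 1963 to 2330 CPM under paclitaxel (median 2183). The fit gave 0.17 ± 0.08 on the log2 scale (edgeR adjusted p = 0.460). In the 3 females of each group Nefm was 1962, 2021 and 2106 CPM under vehicle and 2299, 2122 and 2178 CPM under paclitaxel, so these females did not overlap, in the direction opposite to WT females. The share of all tested genes that separate in so few females was not computed. Treatment and library number cannot be told apart within females. In the males Nefm was 2133, 1889 and 1556 CPM under vehicle and 1963, 2330 and 2189 CPM under paclitaxel, which overlapped.

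The other subunits showed smaller differences in Chrna7-cKO. Nefl ranged from 1475 to 1689 CPM under vehicle (median 1579) and from 1604 to 1735 CPM under paclitaxel (median 1655). Ina ranged from 225 to 294 CPM under vehicle (median 268) and from 264 to 297 CPM under paclitaxel (median 279). In both, treated cords lay in the upper part of the vehicle range or just above it.

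The NAD enzymes differed little in Chrna7-cKO. Nmnat1 ranged from 7.40 to 8.96 CPM under vehicle (median 7.86) and from 7.34 to 9.21 CPM under paclitaxel (median 8.81), and the groups overlapped over most of their range. Its log2 fold change was 0.09 ± 0.07 (edgeR adjusted p = 0.653). Sarm1 ranged from 26.6 to 30.9 CPM under vehicle (median 28.1) and from 28.7 to 32.1 CPM under paclitaxel (median 29.9). The fit gave 0.09 ± 0.04 on the log2 scale (edgeR adjusted p = 0.446). Nmnat2 ranged from 175 to 204 CPM under vehicle (median 195) and from 199 to 205 CPM under paclitaxel (median 200.8). The treated Nmnat2 values fell in a band of a few CPM near the top of the vehicle range. Uchl1 went from 416 to 488 CPM (median 462) under vehicle to 456 to 505 CPM (median 492.5) under paclitaxel, and Sncg from 81.2 to 101 CPM (median 95.5) to 91.6 to 105 CPM (median 94.3). For Sncg the medians lay the other way round from the fitted value of 0.04, which passed no test.

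Markers of other kinds were read beside these values in Chrna7-cKO. Of 10 pan-neuronal markers 8 had log2 fold changes above 0 under paclitaxel and none was called, with a median of 0.06, where 50.6% of all tested genes were above 0. Those with the smallest p were Tubb3, neuronal beta-tubulin, at 0.19 ± 0.06 (edgeR adjusted p = 0.225), and Eno2, neuronal enolase, at 0.17 ± 0.05 (edgeR adjusted p = 0.236). The summed pan-neuronal level was 7206 to 8125 CPM under vehicle (median 7836) and 7813 to 8153 CPM under paclitaxel (median 7915). Of 10 motor neuron markers 5 were above 0, and of 9 tested ganglion neuron markers 3 were. Of 10 skeletal muscle markers 9 were above 0, with a median of 0.69 and none called, and their summed level was 95.7 to 160 CPM over the 23 cords, most of it Pvalb (88.0 to 125 CPM), which neurons also express. The part of neuron or muscle content in the levels of the 9 genes was not tested.

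**Figure D2:**
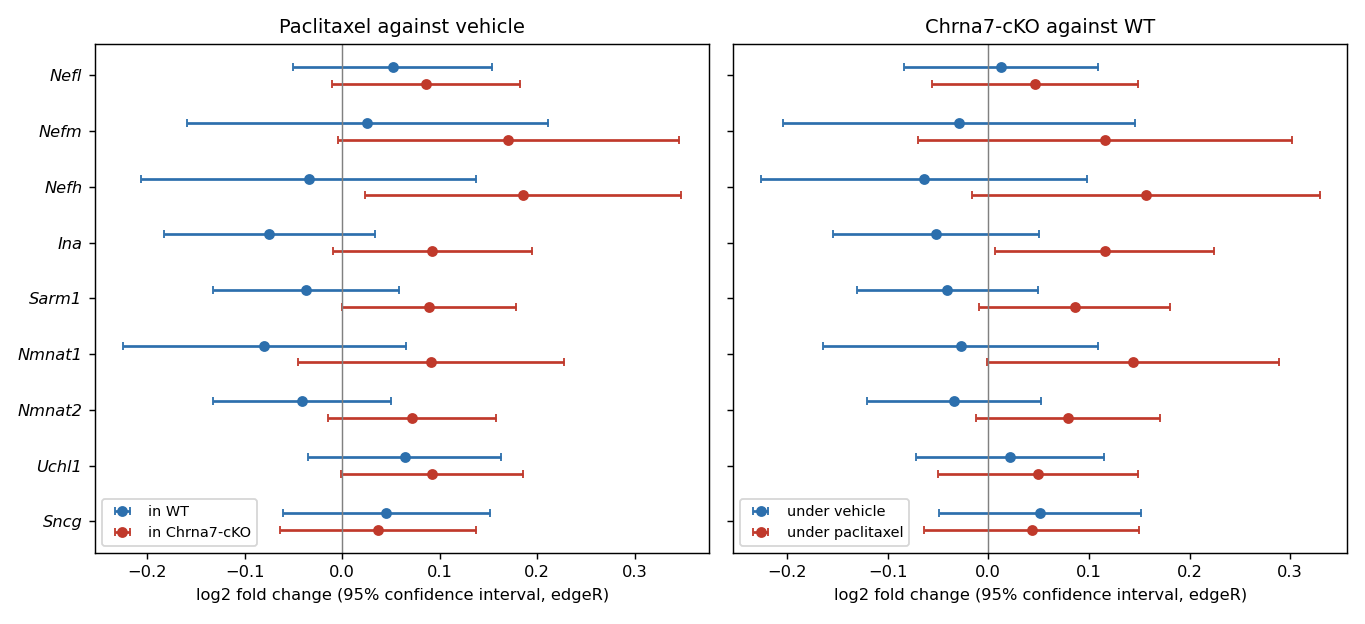
Fitted log2 fold changes of the 9 genes with 95% confidence intervals from edgeR, for paclitaxel against vehicle (left) in WT (blue) and Chrna7-cKO (red), and for Chrna7-cKO against WT (right) under vehicle (blue) and paclitaxel (red). In Chrna7-cKO all 9 points for paclitaxel lie right of 0, from 0.04 to 0.19, and all intervals but those of Nefh (left, red) and Ina (right, red) reach across 0.

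Whether loss of myeloid Chrna7 alters the response to the drug is the interaction of genotype and treatment, the response of Chrna7-cKO minus that of WT. It was not called for any of the 9 genes, and 0% of all tested genes were called. The difference in response was 0.22 ± 0.11 for Nefh, 0.17 ± 0.07 for Ina, 0.17 ± 0.10 for Nmnat1, 0.14 ± 0.12 for Nefm, 0.13 ± 0.06 for Sarm1 and 0.11 ± 0.06 for Nmnat2 on the log2 scale. Nefl, Uchl1 and Sncg were at 0.03, 0.03 and -0.01. Ina (edgeR adjusted p = 0.558) was the single one of the 9 with an unadjusted p under 0.05, where 8.41% of all tested genes were. With the ganglion-like library included, the value of Sncg was -1.59, that of Uchl1 -0.47 and that of Nefh -0.01.

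No called difference between genotypes was found in these genes. Under vehicle none of the 9 was called, where 0.00788% of all tested genes were, and none had an unadjusted p under 0.05, where 5.2% did. There the log2 difference of Chrna7-cKO from WT ran from -0.06 ± 0.08 for Nefh to 0.05 ± 0.05 for Sncg. Under paclitaxel none was called either, where 0.00394% of all tested genes were. All 9 values lay above 0, from 0.04 for Sncg to 0.16 ± 0.08 for Nefh, beside 49.0% of all tested genes above 0. With all 24 libraries 6 of the 9 lay below 0, from -1.54 for Sncg to -0.067 for Nefm. Ina, at 0.12 ± 0.05, had an edgeR adjusted p of 0.790 and was the single one with an unadjusted p under 0.05, where 6.18% of all tested genes were. The treated groups are those of the 2 paclitaxel responses above, so the comparisons share their samples. Over both treatments the differences were 0.02 to 0.06 and none was called, where 0.0118% of all tested genes were, nor had any an unadjusted p under 0.05, where 3.36% did. With all 24 libraries 6 of these 9 also lay below 0, from -0.74 for Sncg to -0.049 for Nefm. Over both genotypes together, paclitaxel gave differences of 0.01 to 0.10, and none of the 9 was called, where 0.0197% of all tested genes were. Uchl1, at 0.08 ± 0.03 (edgeR adjusted p = 0.424), was the single one with an unadjusted p under 0.05, where 10.2% of all tested genes were.

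Between the sexes, the 2 genes outside the filament and NAD systems came nearest to the threshold. None of the 9 was called between males and females, where 0.918% of all tested genes were, and 3 (Sncg, Uchl1 and Nmnat1) had an unadjusted p under 0.05, where 13.2% did. Sncg was higher in males in the fit, at a log2 difference of 0.13 ± 0.04 (edgeR adjusted p = 0.0676), and Uchl1 at 0.11 ± 0.03 (edgeR adjusted p = 0.125). Sncg under vehicle was 80.9, 81.1 and 87.8 CPM in WT females and 94.0, 104 and 93.7 CPM in WT males. It was 91.1, 81.2 and 91.5 CPM in Chrna7-cKO females and 101, 99.6 and 99.9 CPM in Chrna7-cKO males. Within each genotype the vehicle males lay above all vehicle females. How many of all tested genes separate so was not computed. The vehicle females are library numbers 1 to 12 and the vehicle males 13 to 24, so sex and library number cannot be told apart there. Under paclitaxel the order was not the same in Chrna7-cKO, where females had 98.0, 95.4 and 105 CPM and males 92.4, 93.3 and 91.6 CPM. Sncg passed at an edgeR adjusted p of 0.0178 without WT male paclitaxel replicate 1, and Uchl1 at 0.0472 without Chrna7-cKO male vehicle replicate 3. For those 2 fits the share of all tested genes called is not given here. With all 24 libraries the sign of both turned, to -0.66 and -0.15.

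In the fit, 7 of the 9 genes had a more positive difference of paclitaxel from vehicle in males than in females, without passing the threshold. The same held for 49.3% of all tested genes. This interaction of sex and treatment, the response of males minus that of females, was 0.36 ± 0.12 for Nefm (edgeR adjusted p = 0.0923), 0.31 ± 0.11 for Nefh (0.115), 0.20 ± 0.07 for Ina (0.1004), 0.14 ± 0.06 for Nmnat2 (0.169) and 0.21 ± 0.07 for Uchl1 (0.0589). None of the 9 was called, where 4.96% of all tested genes were, and 5 of the 9 had an unadjusted p under 0.05, where 20.3% of all tested genes did. Nefl was at 0.12 ± 0.07. Sarm1 (0.04), Nmnat1 (-0.01) and Sncg (-0.12) were close to 0 or below it. Calls here turned on single libraries: 1 gene (Uchl1) passed without WT female vehicle replicate 3, 3 (Nefm, Nefh and Uchl1) without WT male paclitaxel replicate 3, and 4 (with Ina) without Chrna7-cKO male vehicle replicate 1. The shares of all tested genes called in those fits are not given here. With all 24 libraries the value of Uchl1 was -0.29, of Nefl -0.089 and of Sarm1 -0.12, and 0% of all tested genes were called. Because the same contrast separates library numbers 1 to 12 from 13 to 24, sex by treatment and library number cannot be told apart.

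The effect of genotype also differed between sexes in the fit without passing the threshold. This interaction, the genotype difference in males minus that in females, was -0.32 ± 0.11 for Nefh, -0.30 ± 0.12 for Nefm, -0.26 ± 0.07 for Uchl1, -0.21 ± 0.07 for Sncg and -0.14 ± 0.06 for Sarm1. Nefl, Ina and Nmnat1 were at -0.12 and Nmnat2 at -0.04. With all 24 libraries the values of Sncg, Uchl1, Nefl and Sarm1 were above 0, at 1.37, 0.24, 0.086 and 0.018. The smallest edgeR adjusted p was 0.166, for Uchl1, and none of the 9 was called, where 0.00394% of all tested genes were. At an unadjusted p under 0.05 there were 5 of the 9, where 12.6% of all tested genes were. Over the 10 contrasts and 9 genes, 0 of 90 values were called and 17 had an unadjusted p under 0.05. Of these 17, 3 were between the sexes, 5 in sex by treatment and 5 in sex by genotype. The share of all tested genes under 0.05 ran from 3.36% to 20.3% in single contrasts, and over all contrasts together it was not computed. The contrasts are built from the same group means, so the 17 are not independent and no excess can be read from them.

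Genes that work with the 9 were examined as lists chosen by function. Among 15 filament partners (other intermediate filaments, spectrins, ankyrins and cross-linkers), 0 were called for paclitaxel in WT or in Chrna7-cKO, where 0% and 0.0236% of all tested genes were. In WT 5 of 15 lay above 0, with a median of -0.10, and in Chrna7-cKO 11 of 15, with a median of 0.03. Of all tested genes 51.9% and 50.6% lay above 0, with medians of 0.01 and 0.00. Those with the smallest p in WT were Ank3, ankyrin-G of the axon initial segment, at -0.13 ± 0.04, and Sptbn1, a beta-spectrin, at -0.12 ± 0.04 (edgeR adjusted p = 0.528 for both). Among 12 genes of filament phosphorylation and turnover, 0 were called in either genotype.

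The wider NAD and degeneration groups also held no called gene under paclitaxel. Of 14 genes of NAD metabolism, 7 lay above 0 in WT and 5 in Chrna7-cKO. Nmrk1, a nicotinamide riboside kinase, was at 0.16 ± 0.06 in WT (edgeR adjusted p = 0.528). Sirt2, an NAD-dependent deacetylase of myelin, was at -0.10 ± 0.04 in WT and 0.09 ± 0.04 in Chrna7-cKO (edgeR adjusted p = 0.531 and 0.355). Of 17 genes of axon stress and degeneration signalling, 5 lay above 0 in WT and 7 in Chrna7-cKO, and Map3k13, leucine zipper kinase, was at -0.10 ± 0.05 and -0.11 ± 0.05. Of 10 synuclein and ubiquitin genes, 5 lay above 0 in WT and 6 in Chrna7-cKO.

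In the interaction of sex and treatment, 5 genes of the lists of partners were called, where 4.96% of all tested genes were, and 0% with all 24 libraries. Library numbers cannot be told apart from this contrast. Among filament partners 1 of 15 was called, Lmna, a nuclear lamin, at 0.38 ± 0.10 (edgeR adjusted p = 0.0310). Among filament turnover genes 2 of 12 were called: Cdk5r1, the p35 activator of Cdk5, at 0.23 ± 0.06, and Trim2, a ubiquitin ligase that acts on neurofilament light chain, at -0.19 ± 0.05. Among synuclein and ubiquitin genes 2 of 10 were called: Sncb, beta-synuclein, at 0.31 ± 0.07, and Usp5, a deubiquitinase, at 0.25 ± 0.07. None of the 14 NAD genes or the 17 degeneration genes was called. Markers of several cell types were called in the same contrast. Of pan-neuronal markers 2 of 10 were called, Tubb3 at 0.34 ± 0.08 and Rbfox3 at 0.22 ± 0.06, of oligodendrocyte markers 3 of 10 (Cnp, Mag and Cldn11), of microglia markers 2 of 10 (Csf1r and Cx3cr1) and of astrocyte markers 1 of 10 (Aldh1l1). Of skeletal muscle markers 2 of 10 were called, Acta1 at 3.31 ± 0.85 and Actn3 at 0.92 ± 0.25, and the median of that list was 2.78. Acta1 lay at 0.304 to 7.94 CPM over the 23 cords. The part of these cell types in the values of the 9 genes was not tested.

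The filament subunits kept step with each other from cord to cord. Nefm and Nefh had r = 0.97 over the 23 cords (rho = 0.96, permutation p = 1e-05 for both, the smallest that 100000 permutations can give), and r = 0.96 without the 2 cords farthest from the median of Nefm. The correlation was 0.99 in the 12 cords of library numbers 1 to 12 and 0.97 in the 11 of numbers 13 to 24. The ratio of their counts was 0.503 ± 0.0147 (SD, n = 23) with a range of 0.474 to 0.541, while Nefm varied 1.79-fold and Nefh 1.71-fold between their extremes. Group means of the ratio were 0.512 in WT vehicle, 0.491 in WT paclitaxel, 0.500 in Chrna7-cKO vehicle and 0.506 in Chrna7-cKO paclitaxel.

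Nefl and Nefm had r = 0.87 (rho = 0.87, permutation p = 1e-05 for both, 0.84 without the 2 farthest cords), 0.89 and 0.87 within the library number ranges. Uchl1 and Nefm had r = 0.88 (rho = 0.81, permutation p = 1e-05 and 2e-05), 0.86 and 0.91 within them. Ina did not follow the triplet in the same way. Ina and Nefm had r = 0.56 (rho = 0.56, permutation p = 0.00502 and 0.00588) over all 23 cords, but -0.16 in library numbers 1 to 12 and 0.88 in numbers 13 to 24, so the relation did not hold within both. Ina went instead with Nmnat2, at r = 0.84 (rho = 0.87, permutation p = 1e-05 for both), 0.73 and 0.84 within the ranges. Sarm1 and Nmnat2, the opposed enzymes of the survival axis, had r = 0.25 (rho = 0.31, permutation p = 0.249 and 0.145), and -0.29 and 0.52 within the ranges. Of the 36 pairs, 17 had a Benjamini-Hochberg adjusted p of r under 0.05. The share among other gene pairs was not computed, and the permutations moved cords across the 8 groups. On deviations from the mean of each group, r was 0.97 for Nefm and Nefh, 0.82 for Nefl and Nefm and 0.86 for Uchl1 and Nefm. It was 0.77 for Ina and Nmnat2, 0.35 for Ina and Nefm and 0.04 for Sarm1 and Nmnat2. The part of library depth and cell makeup in these relations was not tested.

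**Figure D3:**
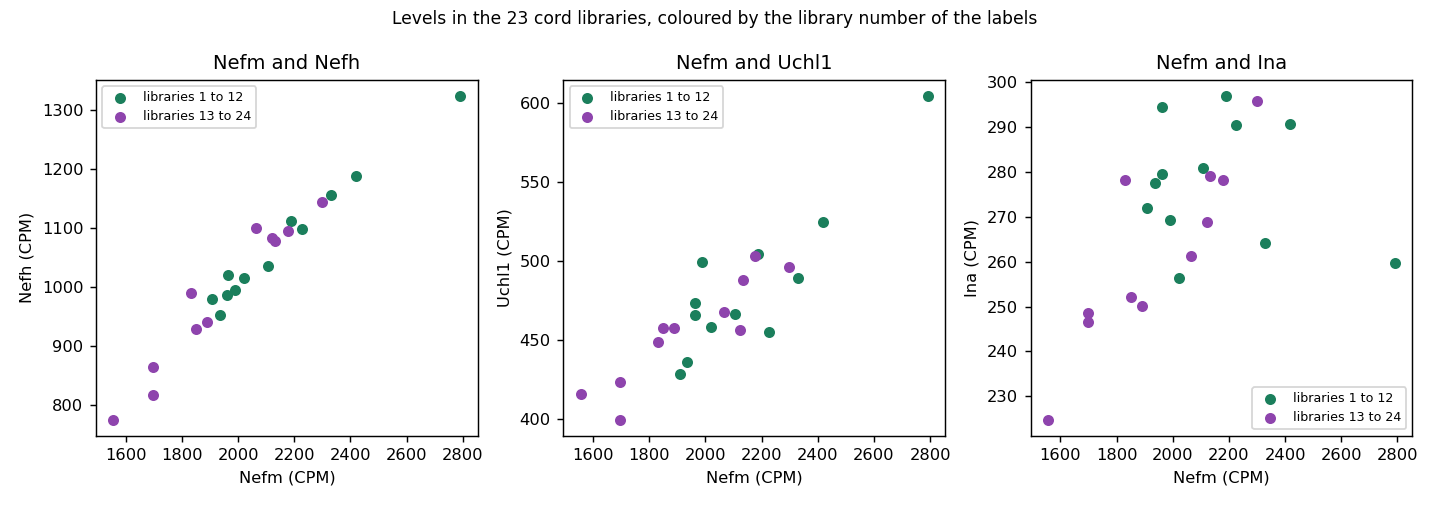
Level of Nefh, Uchl1 and Ina (vertical, CPM) against Nefm (horizontal, CPM) in 23 cords, 1 point per mouse, coloured by library number (1 to 12 green, 13 to 24 purple); axes do not start at 0. Nefh and Uchl1 rise with Nefm in both colours, and Ina does so in the purple points (r = 0.88) but not in the green ones (r = -0.16).

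The groups had like ratios of Nmnat2 to Sarm1. The ratio of their counts was 6.76 ± 0.408 (SD, n = 23), with group means of 6.78 in WT vehicle, 6.75 in WT paclitaxel, 6.80 in Chrna7-cKO vehicle and 6.72 in Chrna7-cKO paclitaxel. These means differed by less than the spread within any group, whose SD was 0.215 to 0.601. Nmnat1 counts were 0.0412 ± 0.00322 of those of Nmnat2.

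Among the 12401 genes with a mean of at least 5 CPM, those most like the mean of the scaled Nefl, Nefm and Nefh over the 23 cords were Gars, Capn1, Sept9, Myl12b and Klc2. Gars, glycyl-tRNA synthetase, had r = 0.94 (rho = 0.90), Capn1, a calcium-activated protease, r = 0.93 (rho = 0.89), Sept9, a septin, r = 0.92 (rho = 0.88), Myl12b, a myosin light chain, r = 0.92 (rho = 0.91) and Klc2, a kinesin light chain, r = 0.91 (rho = 0.85). Uchl1 itself came at rank 8 with r = 0.90. The other members ranked far lower: Nmnat2 at 1130 (r = 0.59), Ina at 1396 (r = 0.55) and Sarm1 at 1905 (r = 0.48). Sncg came at rank 2230 (r = 0.44) and Nmnat1 at 3788 (r = 0.26). The genes most like Sarm1 were Dpp9 (r = 0.77, rho = 0.71), Trim62 (r = 0.77, rho = 0.78) and Hectd3 (r = 0.73, rho = 0.73), a looser set. Those most like Nmnat2 were Sdha, a subunit of mitochondrial succinate dehydrogenase (r = 0.89, rho = 0.86), Fam234b (r = 0.89, rho = 0.85) and Ndrg3 (r = 0.88, rho = 0.90).

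The ganglion-like library gave a different balance of the same 9 genes. It is a single library, so its values carry no test. Sncg reached 1986 CPM against a median of 93.3 CPM over the 23 cords, 21.3 times as much, and Uchl1 1544 CPM against 465 CPM, 3.32 times as much. The triplet was also above every cord, with Nefl at 2823 CPM (1.77 times the median), Nefh at 1698 CPM (1.66 times) and Nefm at 2964 CPM (1.47 times).

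Ina went the other way, to 37.2 CPM against a median of 272 CPM, 7.31 times lower. Sarm1 was 45.5 CPM (1.58 times the median), Nmnat1 10.6 CPM (1.33 times) and Nmnat2 164 CPM (0.825 times), so the ratio of Nmnat2 to Sarm1 counts was 3.60, below the cord range of 5.65 to 7.37. In all, 7 of the 9 genes lay above all 23 cords and 2, Ina and Nmnat2, below them. The share of all tested genes outside the cord range was not computed. Of 15 filament partners 10 lay above all cords and 5 below. Of 17 degeneration genes 8 lay above and 7 below, and of 14 NAD genes 3 and 6. Most genes of these 3 lists thus lay outside the cord range too. Per exon length Sncg was first of the 9 in this library at 2331 RPKM and Uchl1 second at 946 RPKM, ahead of Nefl at 835 RPKM.

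Other filament and synuclein genes differed in this library too. Prph, peripherin, the intermediate filament of peripheral neurons, was 1319 CPM against 47.2 to 99.9 CPM in the cords. Sncb, beta-synuclein, was 54.3 CPM, below the cord range of 179 to 254 CPM. All 10 ganglion neuron markers, all 10 skeletal muscle markers and 9 of 10 Schwann cell markers lay above all 23 cords, and all 10 oligodendrocyte, all 10 astrocyte and 9 of 10 microglia markers below. The skeletal muscle markers summed to 667 CPM in this library, against 95.7 to 160 CPM in the cords. Chat, the acetylcholine-making enzyme of motor neurons, was 0.749 CPM against 22.7 to 36.3 CPM, and 8 of 10 motor neuron markers lay below all cords.

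**Figure D4:**
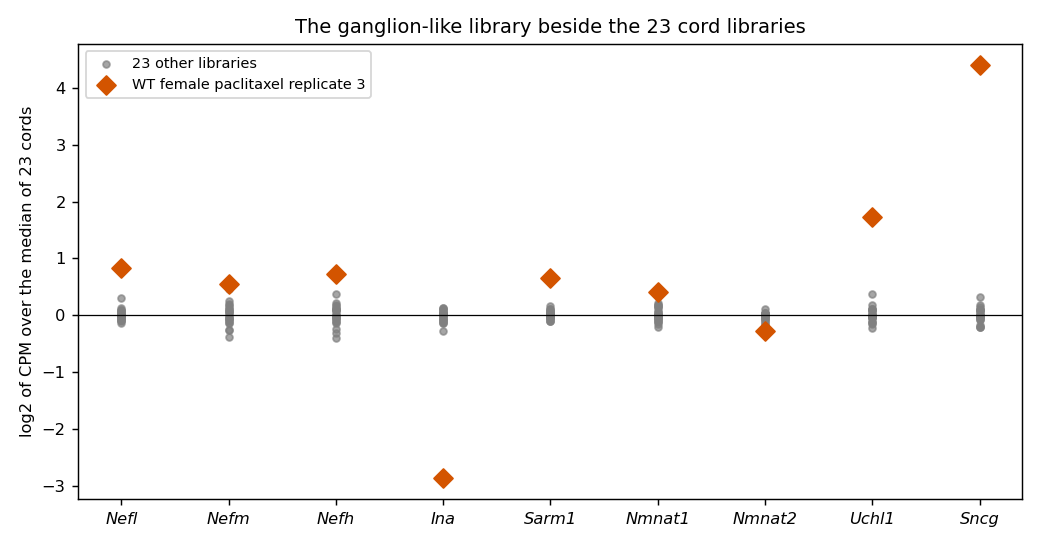
For each gene, the log2 ratio of CPM to the median of the 23 cords, with the cords as grey points and WT female paclitaxel replicate 3, the ganglion-like library, as an orange diamond. Sncg (21.3 times the median) and Uchl1 (3.32 times) are far above the cords and Ina is far below (7.31 times lower).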

How the data were processed

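RNA of 24 mouse lumbar cords was measured by RNA sequencing. The authors deposited whole-number counts per gene symbol in 1 unnormalized table. The submitters' processing notes name STAR (no version in the sources used here) and featureCounts 1.6.2. Counting used exons of the Ensembl GRCm38 annotation release 96, without strand and without read pairs, per the file headers. Both mates may thus have been counted, since 34.4 to 37.3% of genes with 1 to 20 counts had odd counts, and this adds no molecules. All 37 mitochondrial genes had 0 counts, so they gave no sign of RNA quality.

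Levels are CPM of the library total. RPKM uses the exon length in the table. Fold changes come from edgeR 4.0.16 (R 4.3.3), with filterByExpr, TMM factors (0.981 to 1.02), and quasi-likelihood tests on the means of the 8 groups. All 25372 kept genes of 23 libraries were tested in 10 contrasts, with Benjamini-Hochberg adjustment. All 9 genes passed the filter. Each mouse gave 1 library. Replicates differed by a chi-square of at least 9.04 per degree of freedom, so no library was a repeat of another in its group. Correlations used scipy 1.17.1 with 100000 two-sided permutations. Alternatives were DESeq2 1.42.0, limma 3.58.1 voom, other scaling, no filter, all 24 libraries, only the groups compared, a replicate block, halved counts, and each library left out in turn.

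The 9 genes, the 13 lists and the tests were chosen with earlier results of these data known. From a list, up to 4 called genes are named, or at most 2 with the smallest p. Likeness names the top 5 genes for the neurofilament mean and the top 3 for Sarm1 and Nmnat2. Some results of single list genes are not reported here.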

Additional observations from a re-analysis of the deposited data

Results flagged for a closer look

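In WT female paclitaxel replicate 3, the ganglion-like library left out of the comparisons, 7 of the 9 genes exceeded every one of the 23 cords, controls included. They were Nefl (2823 CPM), Nefm (2964 CPM), Nefh (1698 CPM), Sarm1 (45.5 CPM), Nmnat1 (10.6 CPM), Uchl1 (1544 CPM) and Sncg (1986 CPM). The share of all tested genes that did so was not computed. Over the 36 sets of 5 or 6 cords formed by gene, genotype and treatment, no cord stood apart by Dixon's test, which chance would do in about 1 in 20 sets.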

How the results depend on the processing

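No gene of the 9 was called in any contrast, and 300 of 314 counts under the alternatives stayed at 0. Without the filter on low counts 2 were called for paclitaxel in Chrna7-cKO (Nefm and Nefh), 2 between the sexes (Uchl1 and Sncg), 1 for genotype by treatment (Nefh), 4 for sex by treatment and 4 for sex by genotype. With DESeq2, 1 was called between the sexes (Sncg), 3 for sex by treatment (Nefm, Nefh and Uchl1) and 1 for sex by genotype (Uchl1). Leaving out 1 library in turn gave 0 to 1 calls between the sexes and 0 to 4 for sex by treatment. The cause was not tested. The shares of all tested genes called under these alternatives are not given here, so the counts cannot be set against them. Same-numbered cords of different groups had a mean correlation of 0.03 over 77 pairs (from -0.40 to 0.49). Cords with different numbers had a mean of -0.02 over 154 pairs (from -0.41 to 0.40), so the 2 means lay close together. By mean correlation, 12 of 23 cords were nearest to their own number. The labels give no pairing, and these values do not establish one. With the replicate block, 2 genes were called for sex by treatment (Nefm and Uchl1).

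All 90 values (9 genes in 10 contrasts) were recomputed. Of 2826 recomputed fold changes 83 changed sign, 34 of them with all 24 libraries, where the value for paclitaxel in WT was 0.20 for Nefh, 0.12 for Sarm1 and 0.020 for Nmnat1, and over both genotypes -0.11 for Ina. Chrna7-cKO against WT under paclitaxel was then -0.16 for Nefl, -0.067 for Nefm, -0.079 for Nefh, -0.077 for Sarm1, -0.45 for Uchl1 and -1.54 for Sncg. Over both treatments it was -0.076 for Nefl, -0.049 for Nefm, -0.072 for Nefh, -0.059 for Sarm1, -0.22 for Uchl1 and -0.74 for Sncg. Males against females was -0.075 for Nefl, -0.028 for Nefm, -0.039 for Nefh, 0.093 for Ina, -0.15 for Uchl1 and -0.66 for Sncg. Genotype by treatment was -0.18 for Nefl, -0.037 for Nefm, -0.014 for Nefh, -0.035 for Sarm1 and -0.47 for Uchl1. Sex by treatment was -0.089 for Nefl, -0.12 for Sarm1 and -0.29 for Uchl1, and sex by genotype 0.086 for Nefl, 0.018 for Sarm1, 0.24 for Uchl1 and 1.37 for Sncg.

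The other 49 changes of sign were of values near 0. With the replicate block, Sarm1 between the sexes was 0.000232. The rest came from leaving out 1 library in turn. For paclitaxel in WT this moved Nefm from -0.039 to 0.085, Nefh from -0.087 to 0.018 and Sncg from -0.013 to 0.084, with the negative ends without WT male paclitaxel replicate 2. The value of Nefh rose above 0 without WT male paclitaxel replicate 3 or WT female vehicle replicate 2. For paclitaxel over both genotypes Ina went from -0.011 to 0.026, Nmnat1 from -0.045 to 0.041 and Nmnat2 from -0.00046 to 0.027. Between genotypes under vehicle Nefl went from -0.019 to 0.040, Nefm from -0.090 to 0.031 and Uchl1 from -0.012 to 0.054, between the values without Chrna7-cKO male vehicle replicates 1 and 3. Between the sexes Sarm1 went from -0.018 to 0.0080. For genotype by treatment Nefl went from -0.0039 to 0.085, Uchl1 from -0.0052 to 0.073 and Sncg from -0.048 to 0.050. For sex by treatment Nmnat1 went from -0.093 to 0.079.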
